A study of Zea mays with 14 samples.

Results

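The relation of H3K27me3 to DNA methylation was described in shoots of maize (Zea mays) seedlings, from 2 of the 14 libraries of the study: chromatin immunoprecipitation with an antibody to H3K27me3, and sequencing of DNA digested with McrBC. The members were all 14592 H3K27me3 peaks and all 57514 DNA methylation peaks that the authors deposited for shoot. Also used were the 186790 gene models of the shoot gene table, which is labelled as leaving out transposable elements. It gives for each model the length and depth of every mark and of mRNA. Every plant was of the inbred line B73 and was harvested at 14 days, the shoot being compared with the root of the same seedlings where stated. Tissue of 10 seedlings was pooled for each extraction, and immunoprecipitated DNA of several parallel reactions was pooled into each library, so every mark has 1 library per organ and no replicate. Differences between marks, organs or classes of gene therefore have no test here. Shares are given with Wilson intervals at 95% confidence over peaks or gene models. These cover counting error only, because peaks and models of 1 library are not replicates. Reads amplified by PCR without molecular identifiers are also not independent molecules. The other shoot libraries used were those for H3K4me3, H3K9ac and H3K36me3 and the mRNA library. Reads of the mRNA library add up to 21615685 over the gene models, where a read on repeated models may count more than once. A whole shoot holds many cell types, so 2 marks on the same bases may come from different cells, and neither this nor the labelled organ could be checked, since the gene identifiers matched no named gene of the reference table.

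H3K27me3 is trimethylation of lysine 27 of histone H3, written by Polycomb repressive complexes and known in plants for covering silent developmental genes. Cytosine methylation of plant DNA lies mostly on transposons and other repeats, is kept by several DNA methyltransferases, and is also found in the bodies of some transcribed genes. McrBC cuts DNA that carries methylcytosine, and only the short fragments were purified and sequenced, so the method reports places where methylated cytosines are close enough together to give a short fragment. Bases outside its peaks may still be methylated, so DNA methylation below means a peak of this list. H3K4me3 and H3K9ac mark the starts of active genes, and H3K36me3 marks the bodies of transcribed genes.

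Peak positions lie on the bacterial artificial chromosome (BAC) clones of the unfinished maize sequence. In all, 15498 clones held a peak of at least 1 of the 10 lists, and their extent, taken as the last base reached by any peak, had a median of 152.959 kb and summed to 2307.59 Mb. The H3K27me3 peaks lay on 7507 clones, had a median length of 440 bp (interquartile range 279 to 778, longest 6467) and covered 9.01 Mb, or 0.390% of the extent. The DNA methylation peaks lay on 14817 clones, had a median length of 188 bp (159 to 232, longest 7451) and covered 12.2 Mb, or 0.527% of the extent. Peak height is not part of these lists.

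The first question was how often the peaks of both marks meet. An overlap was 1 bp or more on the same clone. The expected number was computed exactly, as the share of all positions within its own clone at which a peak of its own length would meet a peak of the other list. All positions counted alike, since it is not known here where on a clone a peak could be called. A ratio above 1 can also arise where both lists are limited to the same stretches, which was not tested. Of the H3K27me3 peaks, 655 overlapped DNA methylation (4.49%, 4.16 to 4.84), against 270.8 expected (1.86%), a ratio of 2.42. Of the DNA methylation peaks, 718 overlapped H3K27me3 (1.25%, 1.16 to 1.34), against 0.509% expected, a ratio of 2.45. The marks thus met more often than uniform placement gives, while 13937 of the 14592 H3K27me3 peaks met no DNA methylation peak.

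The overlaps were short in bases and large as a part of the peaks. An H3K27me3 peak shared a median of 175 bp with DNA methylation (113 to 241, from 1 to 989), which was a median of 60.7% of its length. In 406 of the 655 peaks at least 50% was covered, and 40 were covered whole. Of the 718 DNA methylation peaks, 373 lay wholly within an H3K27me3 peak. Over all H3K27me3 peaks, 1.44% of the marked bases also lay under a DNA methylation peak. The 655 peaks were spread over 574 clones, of which 531 held 1, 28 held 2, and 15 held 3 or more.

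Length set the H3K27me3 peaks apart. Those overlapping DNA methylation had a median of 302 bp (212 to 514.5), against 448 bp (281 to 787) for the others. In the shortest quartile, 99 to 279 bp, 283 of 3694 peaks overlapped (7.66%), against 1.02% expected, a ratio of 7.48. In the second quartile, 280 to 440 bp, 168 of 3606 overlapped (4.66%, against 1.27% expected). In the third, 441 to 778 bp, 124 of 3648 did (3.40%, against 1.79% expected). In the longest quartile, from 779 bp up, 80 of 3644 overlapped (2.20%, 1.77 to 2.72), against 3.34% expected, a ratio of 0.657. Short H3K27me3 peaks thus met DNA methylation more often than uniform placement gives and long ones less often, although a longer peak has more chances to meet it.

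With the list cut into 10 classes of length, the ratio was highest in the shortest class and lowest in the longest. The shortest class, 99 to 208 bp, stood at 10.8% (9.32 to 12.5), against 0.896% expected, a ratio of 12.1. The longest class, from 1273 bp up, stood at 2.61% (1.91 to 3.56), against 4.40% expected, a ratio of 0.593. The ratio passed below 1 between the peaks of 543 to 682 bp (1.90) and those of 683 to 892 bp (0.800). Among the 64 longest peaks, over 3000 bp, 7 overlapped, against 5.33 expected, too few to give a direction.

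**Figure D1:**
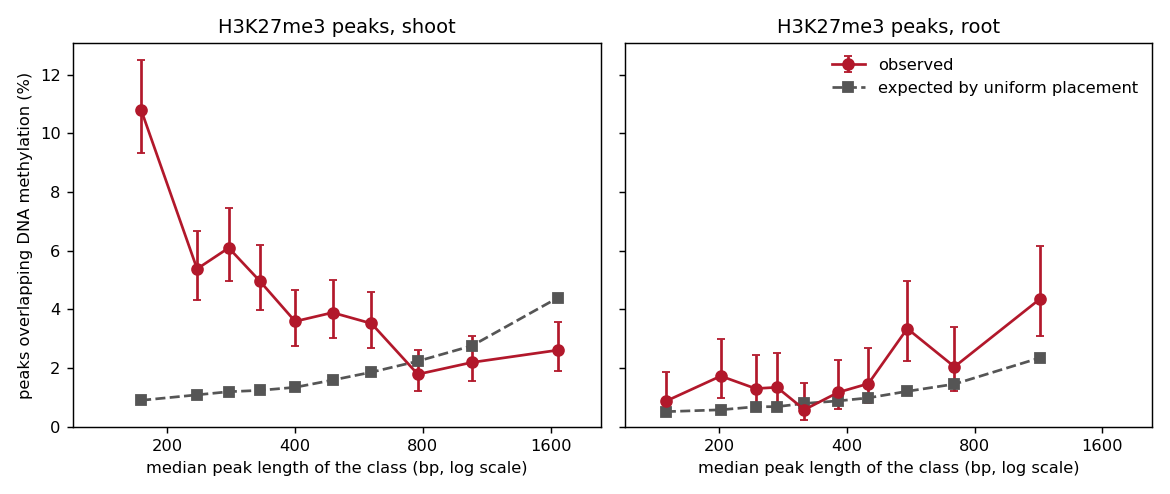
The vertical axis is the percentage of H3K27me3 peaks that overlap a DNA methylation peak of the same organ, and the horizontal axis is the median length (bp, log scale) of each of 10 length classes, for shoot on the left and root on the right. Circles with Wilson 95% intervals are observed and squares are expected from uniform placement within the clone. In shoot the observed share is 10.8% in the shortest class and lies below the expected share in the 3 longest classes.

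Over their whole list, the lengths of the DNA methylation peaks gave no such order. Their quartiles had ratios of 2.94 (69 to 159 bp), 1.79 (160 to 188 bp), 1.99 (189 to 232 bp) and 3.01 (233 bp and longer), so the shortest and the longest stood higher than the middle ones. Among DNA methylation peaks that met none of H3K4me3, H3K9ac and H3K36me3, the ratios were 0.939, 1.07, 1.08 and 1.71, so only the longest quartile stood clearly above 1. Of the 407 DNA methylation peaks over 1000 bp, 2 overlapped H3K27me3 (0.491%, 0.135 to 1.77), against 1.27% expected.

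Around the H3K27me3 peaks, DNA methylation was counted as the percentage of bases under a DNA methylation peak, and divided by the same percentage over the whole of the clones that carry the peaks. In the shortest quartile this relative coverage was 9.68 in the central 50% of the peak and 7.12 in the rest of it. It was still 2.85 within 250 bp outside the peak and 2.04 from 250 to 500 bp. In the longest quartile it was 1.22 in the central 50% of the peak and 0.890 in the rest. It was lowest, at 0.418, in the first 250 bp outside and 0.827 from 250 to 500 bp, and stood at 1.31 from 1 to 2 kb. Long H3K27me3 peaks were thus flanked by bases with less DNA methylation than their clones, and short ones by bases with more. Beyond 2 kb the relative coverage lay between 0.926 and 1.06 in both quartiles.

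**Figure D2:**
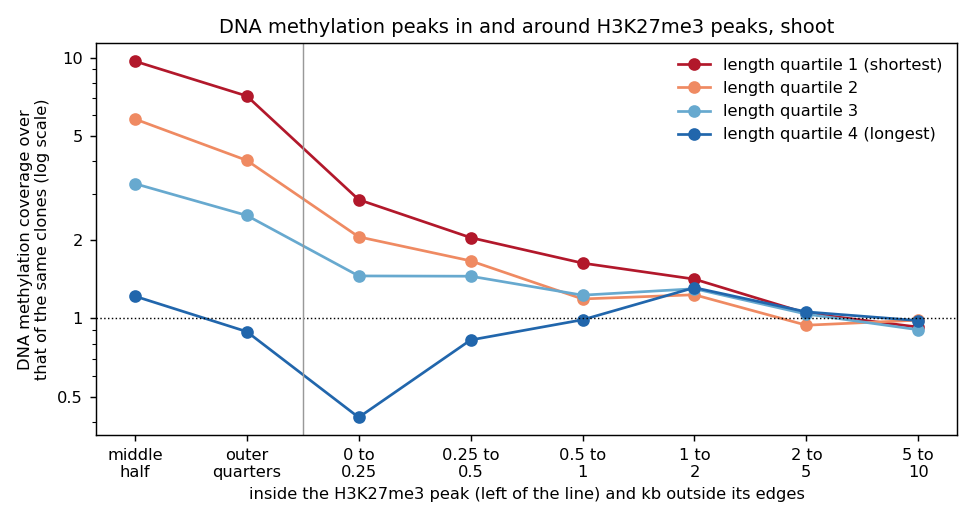
The vertical axis is DNA methylation coverage relative to the whole clone (a ratio on a log scale, where 1 equals the clone), and the horizontal axis runs from the middle of the H3K27me3 peak to 10 kb outside it. Lines are sets of shoot H3K27me3 peaks by length quartile. The shortest quartile reaches 9.68 in the middle of the peak, and the longest has its minimum of 0.418 just outside the peak.

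The nearest DNA methylation peak of an H3K27me3 peak on the same clone lay a median of 15770 bp away (5430 to 37040), and 564 H3K27me3 peaks were on clones with no DNA methylation peak. Within 500 bp or closer, overlaps included, 6.68% of H3K27me3 peaks had one, against 4.06% expected. Within 1000 bp the share was 8.58%, against 6.21% expected, a ratio of 1.38. That ratio was 1.93 in the shorter peaks, up to the median length, and 0.938 in the longer ones. At 5000 bp the share was 22.9%, against 21.5% expected. At 20000 bp it was 54.8%, slightly below the 56.8% expected. The ratio of observed to expected shares was thus largest at the shortest distance given and near 1 at 5000 bp and beyond.

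H3K36me3 and H3K9ac were more frequent on the overlapping H3K27me3 peaks than on the rest. H3K36me3 lay on 259 of the 655 overlapping peaks (39.5%, 35.9 to 43.3), against 3.11% (2.84 to 3.42) of the 13937 others. H3K9ac lay on 39.1% of the overlapping peaks and 26.6% of the others. H3K4me3 lay on 35.3% of the overlapping peaks and 33.8% of the others, and the intervals of these 2 shares overlap. No other mark was present on 297 of the overlapping peaks (45.3%), against 60.0% of the others.

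Read the other way, DNA methylation was most frequent where all the histone marks met. Of the 310 H3K27me3 peaks that also met H3K4me3, H3K9ac and H3K36me3, 131 overlapped DNA methylation (42.3%, 36.9 to 47.8), against 1.74% expected, a ratio of 24.2. With 2 of these 3 marks the share was 4.15%, with 1 it was 3.91%, and with none it was 3.43%, or 297 of 8658 peaks, against 1.61% expected. The 693 H3K27me3 peaks on H3K36me3 overlapped DNA methylation in 37.4% of cases, a ratio of 20.3. Without them, 396 of 13899 peaks overlapped (2.85%), and the ratio for the whole list went down to 1.53.

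The order by length was present with and without those peaks. Among H3K27me3 peaks off H3K36me3, the ratios of the 4 quartiles were 4.18, 2.44, 1.41 and 0.513, from the shortest to the longest. Among peaks with no other mark, the shortest quartile had 108 of 2684 overlapping (4.02%, against 1.02% expected) and the longest had 30 of 1491 (2.01%, against 3.13% expected). In the shortest quartile with all 3 other marks, 96 of 146 peaks overlapped (65.8%, 57.7 to 72.96). In the longest quartile with all 3, only 8 of 38 did (21.1%, 11.1 to 36.3), which was still above the 4.08% expected.

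**Figure D3:**
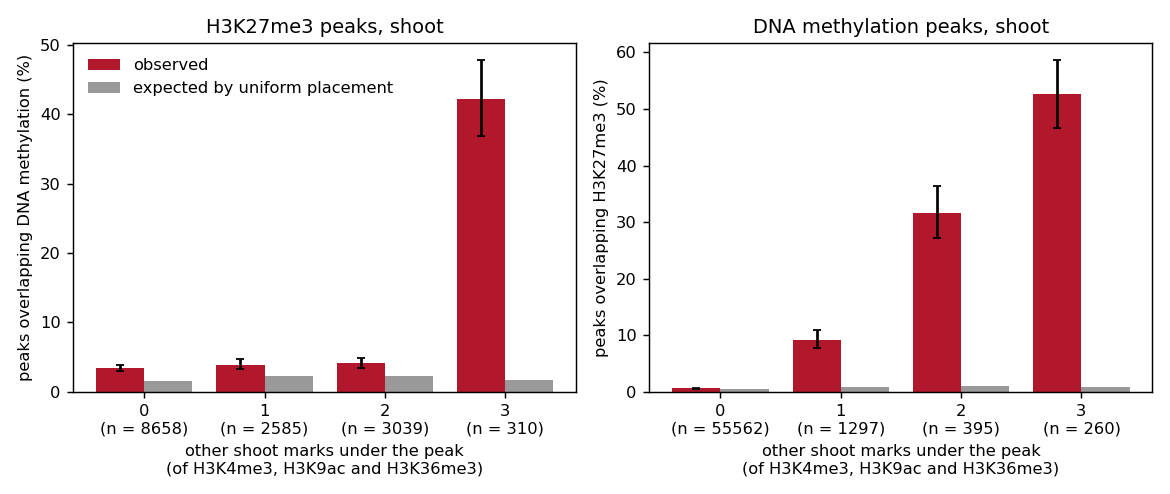
The vertical axis is the percentage of shoot H3K27me3 peaks that overlap DNA methylation (left) and of shoot DNA methylation peaks that overlap H3K27me3 (right), and the horizontal axis is how many of H3K4me3, H3K9ac and H3K36me3 also lie on the peak. Observed shares have Wilson 95% intervals and stand beside those expected from uniform placement. On the left the share is between 3.43% and 4.15% with 0 to 2 other marks and 42.3% with 3, and on the right it goes up with each mark to 52.7%.

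The 131 H3K27me3 peaks that carried all 5 shoot marks were short, with a median of 170 bp (131 to 291.5), and lay on 129 clones. Of these, 99 also met all 4 histone marks of the root, 9 met DNA methylation of the root, and 3 met all 10 lists. The DNA methylation list held 137 peaks at such places, with a median of 151 bp. Most DNA methylation, 55225 peaks or 96.0% of the list, met no histone mark at all. The share that uniform placement gives was not computed for the 4 histone marks together, so this value does not show that the marks avoid each other. Among DNA methylation peaks, the share that met H3K27me3 was 52.7% with all 3 other histone marks, 31.6% with 2 and 9.18% with 1. With none it was 0.607%, or 337 of 55562 peaks, against 0.497% expected, a ratio of 1.22.

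The longest shared stretch was 989 bp, in a 1515 bp H3K27me3 peak on clone AC214801.1 from 178366 to 179880 (positions counted from 1, with the deposited starts read as counted from 0), which met 5 DNA methylation peaks and was covered whole by H3K9ac. The next was 968 bp in the peak of clone AC206033.2 from 8270 to 9323, which carried all the shoot marks. On AC198754.3, a peak from 57841 to 59285 shared 877 bp with a single DNA methylation peak, and was covered whole by H3K9ac and H3K36me3. On AC185461.3, the peak from 173812 to 175354 shared 828 bp, and on AC185650.4 the peak from 234294 to 235151 shared 813 bp. None of these 5 peaks met DNA methylation of the root, and each of the 5 lay wholly under H3K9ac or H3K36me3 of the shoot. Among all 655 overlapping peaks, 75 (11.5%) met DNA methylation of the root, so its absence does not set these 5 apart.

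Of the 655 overlapping peaks, 68 lay on the 15 clones that held 3 or more. AC185461.3 held 9 overlapping H3K27me3 peaks of its 10, beside 22 DNA methylation peaks. Of those 9, 6 lay within its last stretch from 177874 to 180861, all on H3K4me3 and none on H3K9ac or H3K36me3. AC185650.4 held 9 of 11, all of them between 230884 and 235151 at the end of a clone extent of 235399 bp, and all on H3K4me3 and H3K36me3. AC186782.4 held 6 of 9 and AC199189.4 held 6 of 8. The authors' separate list of typed models holds 17 on AC185461.3 and 28 on AC185650.4, with 2 typed as transposable elements on each. It holds 18 on AC186782.4, 6 of them transposable elements, and 10 on AC199189.4, 4 of them transposable elements. The positions of those models within the clones were not compared with the peaks. Without the 15 clones with 3 or more overlapping peaks, the ratio for the whole list was 2.21.

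Across clones, the amount of one mark said almost nothing of the amount of the other. Clones with 7 or more H3K27me3 peaks had 2.59 DNA methylation peaks per 100 kb, those with 4 to 6 had 2.44, those with 2 to 3 had 2.51, those with 1 had 2.48 and those with none had 2.50. DNA methylation was present on 96.0% of the 7507 clones with H3K27me3 and on 95.2% of the 7991 clones without. Spearman's rho between the densities of both lists was -0.00531 over 15498 clones, and lay between -0.0163 and 0.0134 within quartiles of clone extent. It was 0.0255 over the 7210 clones that carry both marks. Clones are not replicates, and all share the same libraries, so these values are a description.

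The clones did differ in other respects. H3K4me3 had 2.999 peaks per 100 kb on clones with 7 or more H3K27me3 peaks, against 1.74 on clones with none, and the rho of H3K27me3 with H3K4me3 was 0.285. The rho of DNA methylation with H3K4me3 was -0.110. Models typed as transposable elements were 27.5% of the typed gene models on clones with 7 or more H3K27me3 peaks, against 39.6% on clones with none. The typed models are a separate list of 161415 models, which includes transposable elements, unlike the gene table. The share of H3K27me3 peaks overlapping DNA methylation was 4.86% on clones with 7 or more, 4.11% with 4 to 6, 4.23% with 2 to 3 and 5.02% with 1, so it kept within a narrow range. The 574 clones with an overlap carried more DNA methylation, at 3.31 peaks per 100 kb, than the 6636 clones with both marks apart, at 2.51, a difference that the choice of these clones itself favours.

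**Figure D4:**
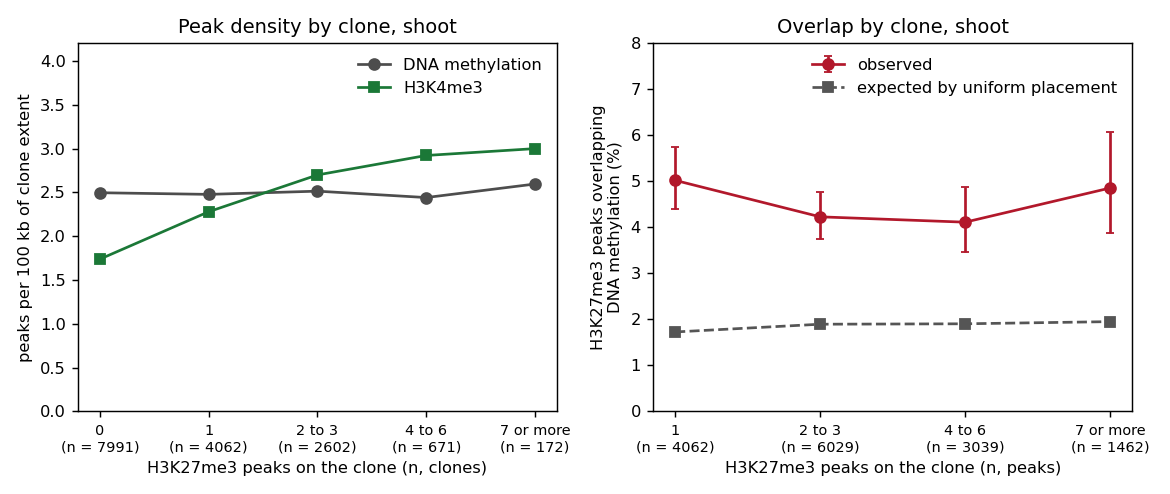
The left panel plots shoot peaks per 100 kb of clone extent for DNA methylation and H3K4me3, and the right panel the percentage of H3K27me3 peaks that overlap DNA methylation (Wilson 95% intervals) with the share expected from uniform placement. Both horizontal axes are the number of H3K27me3 peaks on the clone. DNA methylation stays between 2.44 and 2.59 per 100 kb, and the observed overlap between 4.11% and 5.02%.

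The same pair was set beside that of the root, from 1 library each. In root, 125 of 6875 H3K27me3 peaks overlapped DNA methylation (1.82%, 1.53 to 2.16), against 1.01% expected, a ratio of 1.80. Root H3K27me3 peaks that overlapped were longer, with a median of 534 bp, against 344 bp for the others, while in shoot they were shorter. The expected share itself rises with length, in root from 0.570% in the shortest quartile to 1.79% in the longest. Against that, the root ratios were 2.23, 1.45, 1.65 and 1.89 from the shortest to the longest quartile, so they had no clear order by length. Under 300 bp the ratio was 7.10 in shoot and 2.07 in root. From 300 to 1000 bp it was 2.04 in shoot and 1.72 in root. Over 1000 bp it was 0.647 in shoot (59 of 2380 peaks) and 1.69 in root (21 of 487 peaks). The root lists are shorter, 6875 and 37914 peaks, and their depth is not known here.

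Crossing the organs showed which list went with the order by length. Root H3K27me3 peaks set against shoot DNA methylation had ratios of 9.67, 3.21, 1.33 and 1.16 from the shortest to the longest quartile. Shoot H3K27me3 peaks set against root DNA methylation had 2.87, 2.44, 2.49 and 1.52. The steep order was thus seen with the DNA methylation list of the shoot and either H3K27me3 list. Shoot H3K27me3 peaks that also met H3K27me3 in root overlapped shoot DNA methylation in 17.7% (15.3 to 20.5) of the shortest quartile, against 4.80% (4.08 to 5.64) of those that did not. In the longest quartile the shares were 2.17% and 2.21%.

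The gene table, which by its label leaves out transposable elements, gave the relation over gene models. H3K27me3 was present on 6622 of the 186790 models (3.55%) and DNA methylation on 7828 (4.19%). Both were on 216 models, against 277.5 expected if the marks were independent across the table, a ratio of 0.778. Of the models with H3K27me3, 3.26% (2.86 to 3.72) carried DNA methylation, against 4.22% of the models without it. The ratio changed with the treatment of repeated models, those equal to another in every column of the shoot table. Surplus copies, beyond the first of each set, made up 2.78% of the models with both marks, 20.1% of those with H3K27me3 alone of the pair and 30.1% of those with DNA methylation alone. Models equal in every mark that differ in mRNA, such as Zm036032, Zm148369 and Zm171409, were not counted as copies. The same place may therefore still count more than once. With 1 model kept per set of equal values throughout, which leaves a single model for all those without any value, the ratio was 0.468. With surplus copies removed among marked models only, a choice made after seeing the data, 210 models had both, against 166.6 expected, a ratio of 1.26.

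Models with H3K36me3 differed from those without. With H3K36me3, 61 models had both marks, against 11.7 expected, a ratio of 5.22. Without it, 155 had both, against 270.4 expected, a ratio of 0.573. With surplus copies removed among marked models only, these ratios were 5.10 and 0.972. By H3K4me3, 88 models had both where that mark was present, against 94.7 expected, and 128 where it was absent, against 100.3 expected.

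The 216 models carried less H3K27me3 in length and a like depth. The H3K27me3 length had a median of 481 bp in models with both marks and 722.5 bp in models with H3K27me3 alone of the pair. The depth per marked base, on the authors' scale for that library, had a median of 2.54 in models with both and 2.75 in models with H3K27me3 alone. DNA methylation covered a median of 202.5 bp in models with both, against 183 bp in models with DNA methylation alone of the pair, at a depth per marked base of 0.645 and 0.641. A few models stood far above. An H3K27me3 depth per base of 10 or more was found in 8 of the 216 models (3.70%), against 19 of the 6406 with H3K27me3 alone (0.297%), and 4 of the 8 carried all the shoot marks.

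Other marks divided the classes further. H3K4me3 lay on 40.7% of models with both marks, 70.2% of those with H3K27me3 alone, 11.8% of those with DNA methylation alone and 24.6% of those with neither. H3K36me3 lay on 28.2%, 4.82%, 8.09% and 11.8% of the same classes. DNA methylation of the root lay on 35.2% (29.1 to 41.8) of the models with both in shoot, against 21.7% of those with DNA methylation alone. H3K27me3 of the root lay on 21.8% (16.8 to 27.7) of them, against 25.4% of those with H3K27me3 alone.

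Messenger RNA was read as a mean depth per covered base above 0, which 23.8% of all models had in shoot and 23.7% in root. The lowest value above 0 was 2.55, so a value of 0 may hide low expression. In whole shoots, fewer cells of a type and less RNA per cell cannot be told apart. In shoot, mRNA was above 0 in 82 of 216 models with both marks (38.0%, 31.8 to 44.6), 25.2% (24.2 to 26.3) of those with H3K27me3 alone, 16.2% (15.4 to 17.1) of those with DNA methylation alone and 24.1% of those with neither. Among models above 0, the median of the mean depth was 8.06 with both marks, 5.53 with H3K27me3 alone, 5.74 with DNA methylation alone and 6.19 with neither. The share with both was thus above that of each single mark and above the 23.8% of the table.

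The order of the classes changed with the other marks. With H3K36me3, the shares were 67.2% with both (54.7 to 77.7), 71.8% with H3K27me3 alone, 67.4% with DNA methylation alone and 73.2% with neither, and the interval with both held all the others. Without H3K36me3 they were 26.5% (20.1 to 33.9), 22.9%, 11.7% and 17.5%. In models with none of H3K4me3, H3K9ac and H3K36me3 they were 15.7% (14 of 89, 9.61 to 24.7), 14.7%, 8.21% and 10.8%. Models with DNA methylation alone were the lowest class in the last 2 settings. In these 2 settings models with both did not differ from those with H3K27me3 alone beyond counting error. In other settings they did. With H3K4me3 and no H3K36me3 the share was 38.6% (27.1 to 51.6) with both and 25.5% (24.2 to 26.8) with H3K27me3 alone. With 1 other mark it was 47.5% and 21.0%, with 2 it was 46.7% and 29.6%, and with 3 it was 77.8% and 77.4%. With H3K4me3, models with H3K27me3 alone were the lowest, at 28.2%, against 51.1% with both, 64.2% with DNA methylation alone and 58.6% with neither.

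**Figure D5:**
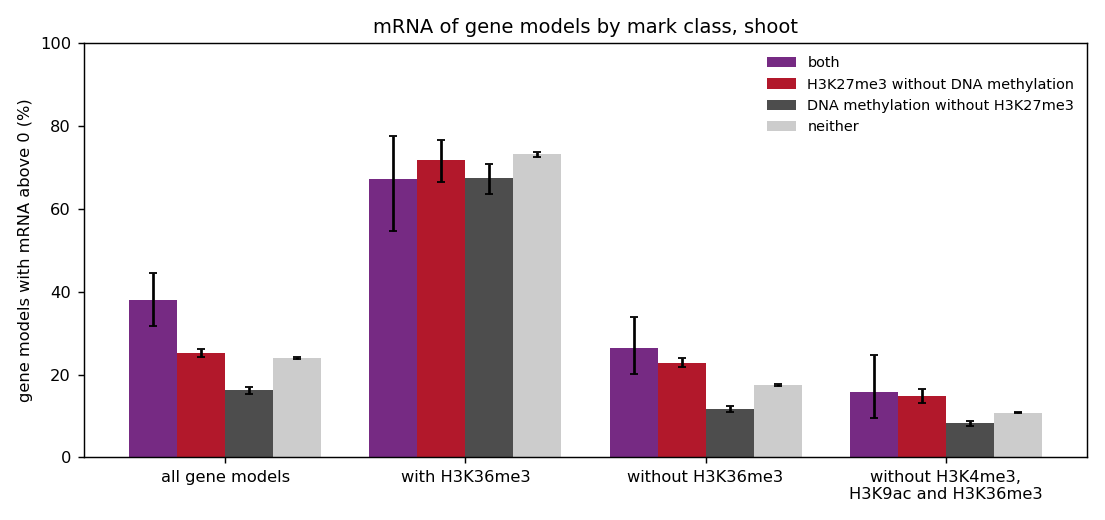
The vertical axis is the percentage of gene models with mRNA above 0 in shoot, with Wilson 95% intervals, for models with both marks, H3K27me3 alone of the pair, DNA methylation alone of the pair and neither. Groups along the horizontal axis are all models and models sorted by the other marks. Over all models the class with both is highest at 38.0%, and with H3K36me3 the 4 classes lie between 67.2% and 73.2%.

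The organs in which the models had mRNA were compared between the classes. Of the 216 models with both marks in shoot, 16.7% (12.3 to 22.2) had mRNA in shoot only, 6.02% (3.55 to 10.0) in root only and 21.3% in both organs. Of the models with H3K27me3 alone, 7.85% (7.22 to 8.54) had it in shoot only, 14.4% (13.5 to 15.2) in root only and 17.4% in both. Of the models with DNA methylation alone, 2.81% had it in shoot only and 3.03% in root only. Of those with neither mark, 4.22% had it in shoot only and 3.801% in root only. Models with H3K27me3 alone in shoot thus had mRNA more often in root only than in shoot only, and models with both marks the reverse. H3K36me3 of the shoot lay on 28.2% of models with both and 4.82% of those with H3K27me3 alone. It lay on most of the models with both marks and mRNA in shoot only, and on none of those with mRNA in root only. The reverse order was thus seen only with the models that carry H3K36me3 included. In all, mRNA of the root was above 0 in 27.3% of the models with both and 31.7% of those with H3K27me3 alone.

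The models with both marks and the highest mRNA were Zm020449, with a mean depth of 32892 over 70 bp in shoot and 29909.5 in root, and Zm134698, with 2031.94 in shoot and 1698.58 in root. Zm020449 had an H3K27me3 depth per base of 225 over 265 bp and Zm134698 one of 304 over 248 bp, far above the median of 2.54. The highest H3K27me3 depth per base of all was 670 over 119 bp in Zm071687, whose mRNA was listed at 0 in both organs. All 3 carried every mark in both organs. Their shoot DNA methylation depth per base was high as well, against a median of 0.645 in models with both marks. It was 29.5 in Zm020449, 100 in Zm134698 and 50.3 in Zm071687. High depth at these models was thus not particular to H3K27me3. The files give these identifiers no gene name and no position.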

How the data were processed

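The members and lists were chosen with earlier results of these data known. Sample titles gave the groups. The authors deposited, for each chromatin library, a peak list with a clone, a start and an end, and for each organ a gene table whose depths are signal (summed base coverage), with mRNA depths in multiples of 35 bases. The marks' depths carry 1 scaling factor per library, judged from the deposited values. The sources used here do not give the aligner, the peak caller, the genome build or the chromatin libraries' total reads. Starts were read as counted from 0, and 27 peaks of each shoot list that start before their clone were kept. Overlaps of 1 bp or more, the exact expectation of uniform placement and classes of gene models (marked length above 0) were computed with Python 3.11.15, numpy 2.4.6, pandas 2.3.3 and scipy 1.17.1, and drawn with matplotlib 3.10.9. The calculation was tested on simulated data. Clones and gene models are not replicates, so no p-value was computed. Alternatives changed the overlap, the placement, the peaks kept and the gene models kept. Named peaks were the 5 longest overlaps, named clones the 3 with most overlaps (a tie adds 1), and named models the 2 highest in mRNA and in H3K27me3 depth. The small RNA libraries were not used here.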

Additional observations from a re-analysis of the deposited data

Results flagged for a closer look

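H3K27me3 peaks over 1000 bp went opposite ways in the organs. Relative to uniform placement within the clone, their overlap with DNA methylation was 0.647 in shoot (59 of 2380 peaks, 0.503 to 0.831) and 1.69 in root (21 of 487 peaks, 1.11 to 2.55). The values were picked out because shoot lies below 1 and root above 1 for the same comparison. The difference between the organs was not tested, with 1 library per mark and organ.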

How the results depend on the processing

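Of 84 alternative values, 21 stayed close to the main value, 58 moved and 5 reversed direction, where close means within the interval of a share or ratio and within 1.5 times a count. The alternatives that leave out peaks on other marks or clones with 3 or more overlaps, or models with H3K36me3 or very deep H3K27me3, that merge peaks of a list, or that keep models without marks beside 1 per set of equal values, were chosen after seeing the data. Chromatin library depth is unknown, which limits all peak counts. The cause of each shift was not tested, except where fewer peaks or models were used.

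Asking for at least 50% of the peak to be covered gave 2.78% of H3K27me3 peaks (ratio 10.2) and 1.08% of DNA methylation peaks (2.80). Keeping in both lists the peaks no shorter than the list's median gave 2.09% (1.47) and 0.628% (1.59). H3K27me3 peaks of 500 bp or more gave 2.66%, with the ratio reversed to 0.986, and 0.384% of DNA methylation peaks (1.13). Placement within 10 kb gave ratios of 2.18 and 2.21, and 1.29 within 1 kb; the 5 kb limit gave 1.07. An extent from the first to the last peak gave 2.27 for DNA methylation peaks. Without peaks on H3K36me3 the shares were 2.85% (1.53) and 0.773% (1.54). Without peaks on any of the 3 other marks they were 3.43% (2.13) and 0.607% (1.22). Without clones of 3 or more overlaps they were 4.05% (2.21) and 1.10% (2.20). The rho across clones, -0.00531, reversed to 0.00264 by covered share and to 0.0255 on clones with both marks; all are near 0.

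For gene models with both marks, 1 per set of equal values gave a ratio of 0.468, with all models without any value, mRNA included, counted once. It gave 1.26 (reversed) with all models without marks kept. Mark depth at or above the median left 40 models, a ratio of 0.577. Models with H3K4me3, H3K9ac or H3K36me3 held 127, a ratio reversed to 1.04. Models without H3K36me3 gave 0.573.

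The shares with mRNA above 0 follow as both, H3K27me3 alone, DNA methylation alone and neither, where they moved. Equal values counted once gave 31.6% for H3K27me3 alone and 23.2% for DNA methylation alone under both versions, and 72.1% or 25.0% for neither. Mark depth at or above the median gave 57.5%, 22.6% and 14.2% for the first 3. A mean mRNA depth at or above the median gave 22.7%, 11.6%, 7.44% and 12.1%. Models without the 3 other marks gave 15.7%, 14.7%, 8.21% and 10.8%. Models with H3K4me3 gave 51.1%, 28.2%, 64.2% and 58.6%. Models without H3K36me3 gave 26.5%, 22.9%, 11.7% and 17.5%.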
